A study of Mus musculus with 21 samples.

Results

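A retained_intron transcript is a spliced transcript that the annotation marks as still holding intronic sequence of its gene. The mouse transcripts of that type in protein-coding genes were taken from the mm9 annotation (GENCODE vM1), and 11356 of them, in 5139 genes, had a value in the deposited tables. A gene was kept for a cell type when its transcripts summed to at least 1 TPM in every library of that cell type. That left 3591 of the 9770 protein-coding genes that passed in md cells and 3803 of 10633 in ES cells, 3360 of them in both. The 4034 genes that passed in either cell type hold 9550 retained_intron transcripts, of 84877 annotated transcripts in the series. TPM is a transcript's abundance per length, scaled to 1000000 over all transcripts of a library. The measure was the share of a gene's TPM that its retained_intron transcripts held together in a library.

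RBM10 is a nuclear RNA-binding protein that acts on splice site choice. md cells are a mandibular pharyngeal arch (MEPA) line made from 11.5 d.p.c. mouse embryos of CD1 females and an Immortomouse male, and all of them, edited or not, were grown at 33 °C with 100 U per ml of murine interferon. Polyadenylated RNA was sequenced from 4 md cell lines in which Rbm10 had been knocked out with CRISPR/Cas9 (KO 1 and KO 2 carry a deletion in exon 3, KO 3 and KO 4 in exon 9) and from 3 samples of wild-type md cells. So was RNA from 3 samples of the Rbm10 gene trap ES line CSI176, a male line in which the X-linked gene is hemizygous, and 3 samples of its wild-type parent E14Tg2a.4, all cultured with LIF. Each ES genotype is 1 line and the wild-type md samples are 1 line, so their spread is that between samples of a line and may be technical. iCLIP, which maps the nucleotides at which a protein was crosslinked to RNA by UV light (400 mJ per cm2 at 254 nm), was done in wild-type md cells with an antibody to RBM10 in 4 experiments, each with its own control precipitation with rabbit IgG.

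Introns are normally cut out before a messenger RNA leaves the nucleus. A transcript that keeps an intron is usually held in the nucleus or carries an early stop codon, and some genes, among them those of SR proteins and CLK kinases, are known for introns whose removal is delayed (detained introns). RBM10 and its relatives RBM5 and RBM6 are known mainly for changing the inclusion of cassette exons.

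Retained_intron transcripts were short. Their median annotated length was 797.5 nt with 3 exons, against 1921 nt and 8 exons for the protein_coding transcripts of the same genes, 1135 nt and 7 exons for those marked for nonsense-mediated decay and 591 nt and 4 exons for processed transcripts. A whole intron of a protein_coding transcript lay inside a single exon of 3251 of the 9550 (34.0%), and 1062 held at least 2 such introns. The others end or begin within an intron or run past a splice site, so the label covers more than complete intron retention. Genes had a median of 2 such transcripts, 1607 genes had 1, and Eif4a2, a translation initiation helicase, had the most with 15. In 683 transcripts (7.15%) the value was 0 in all 13 RNA-seq libraries. In the same genes it was so in 6.81% of protein_coding, 6.62% of nonsense-mediated decay and 10.7% of processed transcripts.

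The sequences of 4 retained introns are shown because they are among the 10 with the lowest p for more crosslinks in RBM10 than in IgG libraries, lie between coding exons, carry no base of another annotated exon on their strand and have at least 5 bases crosslinked in all 4 RBM10 libraries in the stretch shown. Each is read 5′ to 3′ on the gene's strand from mm9, and capitals mark the bases that were crosslinked in all 4 RBM10 libraries. The first is the whole 277 nt intron 6 of Aars, alanyl-tRNA synthetase, at chr8:113566286-113566562 on the plus strand. The others are the last 150 nt of intron 11 of Tial1 (an RNA-binding protein that favours U-rich sequence, chr7:135587461-135587610, minus strand), of intron 3 of Blmh (bleomycin hydrolase, chr11:76764396-76764545, plus strand) and of intron 4 of Psmb8 (an interferon-induced proteasome subunit, chr17:34337506-34337655, plus strand).
Aars: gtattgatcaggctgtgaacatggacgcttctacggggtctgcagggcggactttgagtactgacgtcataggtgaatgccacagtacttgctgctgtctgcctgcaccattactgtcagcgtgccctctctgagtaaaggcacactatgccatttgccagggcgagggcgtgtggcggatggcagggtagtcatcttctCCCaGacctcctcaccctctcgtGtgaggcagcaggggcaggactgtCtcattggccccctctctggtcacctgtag
Tial1: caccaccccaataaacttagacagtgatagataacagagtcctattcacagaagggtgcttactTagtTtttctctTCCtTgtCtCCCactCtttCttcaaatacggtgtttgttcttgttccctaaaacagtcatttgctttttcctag
Blmh: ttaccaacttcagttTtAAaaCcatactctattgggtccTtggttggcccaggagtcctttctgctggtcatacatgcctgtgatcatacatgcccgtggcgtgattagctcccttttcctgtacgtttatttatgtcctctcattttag
Psmb8: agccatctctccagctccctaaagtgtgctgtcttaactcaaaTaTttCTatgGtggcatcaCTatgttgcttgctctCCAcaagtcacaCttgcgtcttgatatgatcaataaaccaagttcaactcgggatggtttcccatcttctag

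The capitals lay upstream of the 3′ splice site, not at it. In Aars 6 bases were crosslinked in all 4 RBM10 libraries, 4 of them C, and the most crosslinked was a C 76 nt from the intron's end with 304 RBM10 crosslinks, against 4 in IgG libraries. In Tial1 12 bases were, 8 of them C and 4 T, and a C 72 nt from the end led with 62 RBM10 crosslinks and 0 IgG crosslinks. In Blmh a C 129 nt from the end took 243 of the 543 RBM10 crosslinks in the stretch shown, against 0 in IgG libraries. Psmb8 had 11 such bases, and its most crosslinked was a T 87 nt from the end, with 82 RBM10 and 2 IgG crosslinks.

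RBM10 libraries held between 774816 and 2847066 crosslinks and IgG libraries between 103017 and 2214515. The RBM10 libraries were sequenced on 1 lane and the controls on another, so antibody and lane cannot be told apart. Rbm10 stood at 23.2, 19.7, 7.20 and 3.49 TPM in md KO 1 to 4, against 21.4, 23.2 and 23.7 TPM in md WT. In ES cells it was 4.27, 3.63 and 4.25 TPM in KO, against 32.5, 33.5 and 32.2 TPM in WT. The gene total was lower in the exon 9 clones and the gene trap line, and it does not check the exon 3 clones. The markers of the cell types fitted the labels in part: all 10 ES markers reached 1 TPM in every ES library, and 7 of 10 arch mesenchyme markers did in md WT and 6 in md KO, with Barx1 and Hand2 listed at 0 in md cells. Rbm10, Rbm5 and Rbm6 themselves have no retained_intron transcript in the annotation.

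Loss of RBM10 left the total held by retained_intron transcripts within the spread between samples. Summed over the member genes they held 12.5% ± 0.163 of TPM in md KO (SD, n = 4) and 12.5% ± 0.266 in md WT (n = 3), and 13.3% ± 0.314 in ES KO and 13.3% ± 0.581 in ES WT (n = 3 each). The share of the median gene was 3.80, 4.18, 3.56 and 2.84% in md KO, against 3.94, 4.56 and 3.46% in md WT. It was 3.37, 3.63 and 3.72% in ES KO, against 3.84, 3.12 and 4.24% in ES WT. In both cell types the groups overlapped. A share of 50% or more was seen in 167 to 204 genes in md KO and 175 to 193 in md WT, and in 285 to 302 genes in ES KO and 264 to 295 in ES WT. In a culture, fewer cells with a transcript and less of it in each cell cannot be told apart.

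**Figure D1:**
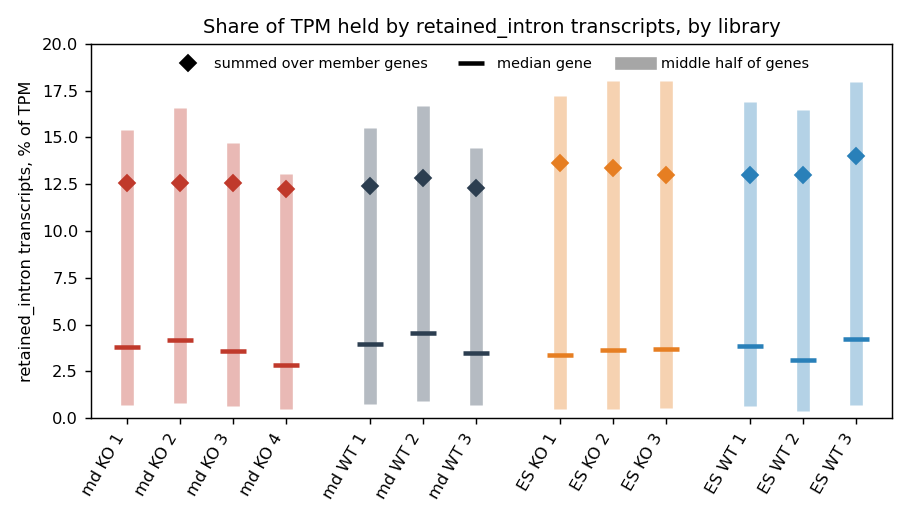
Share of TPM held by retained_intron transcripts (y axis, percent) in each RNA-seq library (x axis). Diamonds are the summed share over member genes, dashes the median gene and bars the middle 50% of genes; summed shares lie between 12.2 and 14.01% in all 13 libraries and KO and WT overlap in both cell types.

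No retained_intron share passed the test in knockout md cells. The test was limma on percent shares over all transcript classes of all passing genes, with Benjamini-Hochberg adjustment over all rows, and a call needed an adjusted p under 0.05 and 10 percentage points. Of the 3591 genes, 2676 had a mean share between 1 and 99% and were tested, and 0 were called, as were 0% of the 11605 rows of all classes. The unadjusted p was under 0.05 in 161 retained_intron rows (6.02%), against 6.57% of all rows. By direction, 55 (2.06%) were higher and 106 (3.96%) lower in KO, against 3.17% and 3.4% of all rows. Libraries of KO and WT did not overlap in 207 retained_intron rows (7.74%), against 7.57% of all rows. The share of members was near the background in both totals. Without KO 2 a single row passed (0.0374%, against 0.0344% of all rows), 2200002D01Rik, with a difference of −63.4 points.

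The 5 rows of md cells with the lowest p all had an adjusted p of 0.42. The largest difference among them was in Osgep, which encodes a tRNA-modifying enzyme of the KEOPS complex. Its share was 69.7, 74.2, 72.6 and 70.9% in md KO, against 57.3, 61.5 and 61.9% in md WT, with no overlap and a difference of 11.7 points (SE 2.03). Its total was 60.7, 33.4, 47.7 and 58.6 TPM in KO and 30.1, 33.8 and 32.5 TPM in WT, and in ES cells its share overlapped between KO (29.3, 16.6 and 33.8%) and WT (25.4, 35.9 and 29.9%). The leading transcript, ENSMUST00000162850.1, lies at chr14:51535463-51537049 on the minus strand, has 6 exons over 586 nt and holds no whole intron.

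The other 4 differed by less than 10 points. Slc25a14, a mitochondrial carrier, was listed at 0 in all 4 md KO libraries, against 8.89, 3.76 and 5.83% in md WT, at a gene total under 5 TPM in every md library. Rnf31, a ligase of linear ubiquitin chains, held 6.33, 6.24, 6.97 and 8.57% in KO, against 16.7, 11.7 and 15.1% in WT. Itch, another ubiquitin ligase, held 1.77, 4.70, 2.59 and 1.09% in KO, against 10.2, 10.9 and 7.01% in WT. Sat1, which acetylates spermidine and spermine, was the one on the higher side, with 7.90, 8.19, 8.37 and 7.58% in KO, against 4.10, 4.91 and 4.38% in WT. None of the 4 overlapped between md KO and md WT, and the exon 3 and exon 9 clones lay on the same side of WT in each. As for Osgep, that follows from the choice by lowest p in the same test, and 7.57% of all rows did not overlap.

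**Figure D2:**
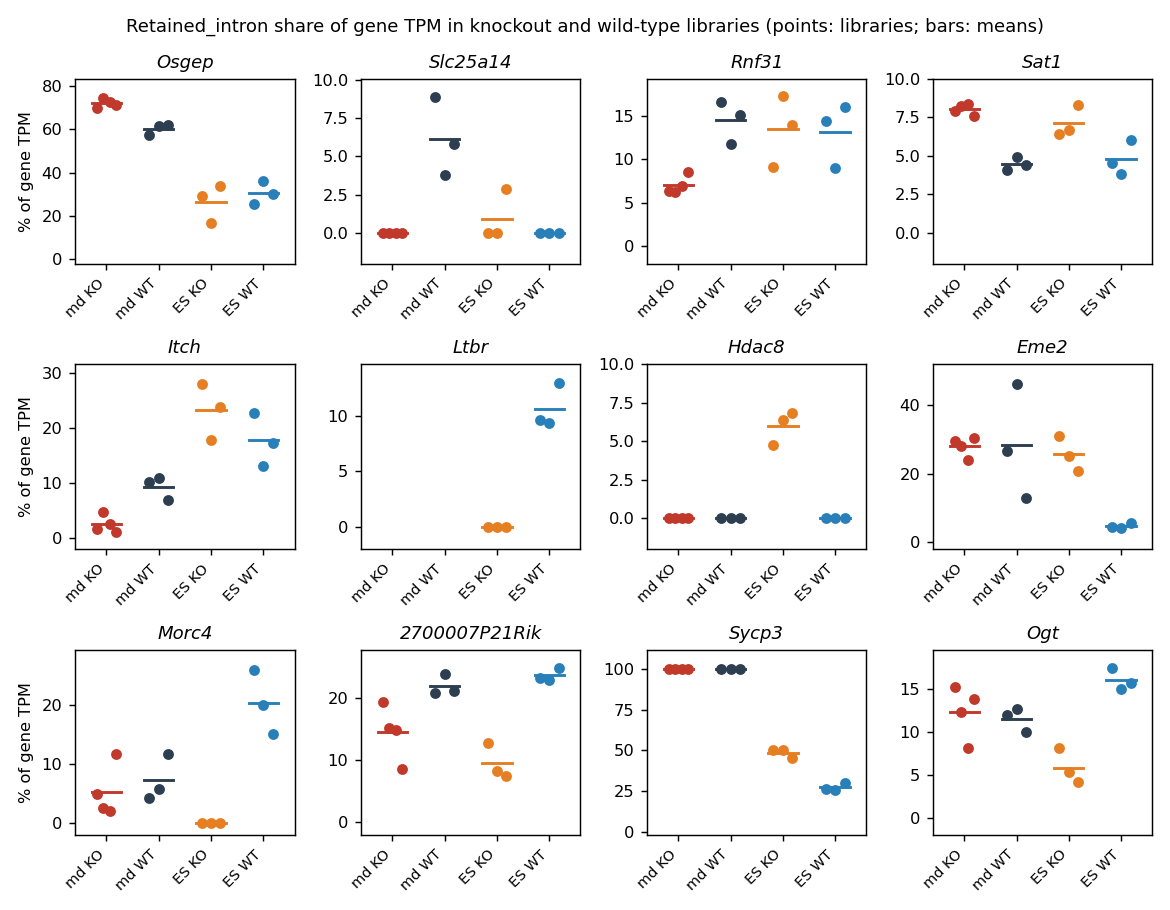
Retained_intron share of gene TPM (y axis, percent) for 12 genes named in the knockout comparisons, in md KO, md WT, ES KO and ES WT libraries (x axis). Points are libraries and bars are means; the 5 md genes, picked by lowest p, separate KO from WT in md cells without passing the adjusted test, Sycp3 is at 100% in all md libraries, and Ltbr, listed at 0 TPM in every md library, has no md points.

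The gene trap ES line gave the same count. Of 3803 genes 2721 were tested and 0 retained_intron rows were called, against 0.0168% of 11874 rows of all classes; the lowest adjusted p was 0.089. The unadjusted p was under 0.05 in 266 (9.78%), against 10.2% of all rows, and KO and WT did not overlap in 453 (16.6%), against 16.7%. Without ES KO 1 there were 2 calls (0.0730%, against 0.109% of all rows), both higher in KO: Slc6a9, a glycine transporter, at 57.0 points, and Prrg2 at 19.9 points.

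The lowest p in ES cells belonged to Ltbr, the lymphotoxin β receptor. Its retained_intron share was listed at 0 in all 3 ES KO libraries, against 9.67, 9.39 and 12.9% in ES WT (difference −10.7 points, SE 1.16, limma adjusted p = 0.089), at gene totals of 2.30 to 2.90 TPM. Morc4, of a family of nuclear ATPases, was likewise at 0 in KO, against 25.8, 20.01 and 15.0% in WT, and its total was 1.25, 1.89 and 1.52 TPM in KO and 2.74, 3.21 and 3.56 TPM in WT. Both genes lay near the limit of 1 TPM, and both passed when shares were put on a logit scale. Eme2, a partner of the MUS81 nuclease, held 31.1, 25.1 and 20.8% in KO, against 4.60, 4.30 and 5.71% in WT (20.8 points, SE 2.79, adjusted p = 0.11). Hdac8, a lysine deacetylase, held 4.78, 6.37 and 6.82% in KO and was listed at 0 in WT and in all md libraries. The RIKEN gene 2700007P21Rik held 12.8, 8.26 and 7.52% in KO, against 23.3, 22.9 and 24.9% in WT, and its total was lower, at 21.4, 11.3 and 12.6 TPM in KO, against 46.2, 46.1 and 29.5 TPM in WT.

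Detained introns known from mouse ES and other cells were listed separately, 20 genes of which 13 have a retained_intron transcript. None was called in either knockout. In ES cells 5 of the 11 tested had an unadjusted p under 0.05, against 10.2% of all rows, and the median difference of the 11 was −2.999 points, against 0.04 points over all retained_intron rows. Ogt, which attaches O-GlcNAc to proteins and is known for a detained intron, held 8.11, 5.31 and 4.14% in ES KO, against 17.5, 15.1 and 15.7% in ES WT (−10.2 points, SE 1.51, adjusted p = 0.12). Luc7l2, a U1 snRNP-associated protein, held 6.14, 1.61 and 2.44% in KO, against 11.5, 9.79 and 11.4% in WT (adjusted p = 0.22). Clk2, an SR protein kinase, held 10.2, 9.95 and 9.99% in KO, against 14.2, 12.96 and 15.7% in WT, and Son, a nuclear speckle protein, held 5.89, 4.21 and 4.50% in KO, against 7.24, 8.90 and 7.45% in WT. These are the 4 of the list with the lowest p. None of them overlapped between ES KO and ES WT, which follows from that choice, and 16.7% of all rows did not overlap. In md cells 0 of 13 had an unadjusted p under 0.05 and the median was −0.07 points, against −0.27 over all retained_intron rows, with Ogt at 15.3, 12.3, 8.08 and 13.9% in KO and 12.0, 12.6 and 9.99% in WT.

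Other lists of splicing and RNA decay genes had 0 calls in both knockouts. Among genes of branch point and 3′ splice site recognition, 2 of 6 tested in md cells had an unadjusted p under 0.05, against 6.57% of all rows: Sf3b4 (0.666, 0.514, 1.30 and 0.431% in KO, against 1.40, 3.45 and 2.46% in WT) and U2af1l4 (15.4, 20.8, 14.1 and 15.8% in KO, against 9.67, 14.8 and 8.39% in WT). In ES cells Sf1, the branch point binding protein, was the 1 of 4, with 1.38, 1.37 and 1.30% in KO and 3.37, 2.43 and 3.49% in WT. The adjusted p of these 3 lay between 0.43 and 0.75. SR proteins, hnRNPs, the minor spliceosome, nuclear RNA decay and reported RBM10 targets had 0 rows with an unadjusted p under 0.05 in either knockout, among 5 and 6, 6 and 5, 2 and 2, 4 and 4, and 4 and 3 rows tested in md and ES cells. Of the nonsense-mediated decay list 1 of 14 genes has such a transcript and none was tested.

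The knockouts share no sample, so their rows can be set side by side. Of 2214 retained_intron rows tested in both, 12 had an unadjusted p under 0.05 in each, 10 with the same sign; over all classes it was 90 of 9707 rows, 59 with the same sign. No row of the 12 passed the adjusted test in either cell type, and the genes were chosen after their values were seen. Msto1, a mitochondrial distribution protein, held 20.6, 23.3, 18.5 and 21.6% in md KO, against 16.7, 16.6 and 16.1% in md WT, and 11.8, 11.5 and 12.0% in ES KO, against 9.28, 8.88 and 9.11% in ES WT. Pycr1, of proline synthesis, was lower in both, with 2.92, 2.33, 1.67 and 1.32% in md KO, against 6.54, 5.43 and 5.02% in md WT, and 1.93, 0 and 0% in ES KO, against 7.62, 5.40 and 4.58% in ES WT. Ift20, an intraflagellar transport protein, was lower too, with 1.36, 1.31, 0.378 and 0.378% in md KO, against 2.76, 3.78 and 2.89% in md WT, while its gene total was 129, 110, 90.6 and 135 TPM in md KO and 49.6, 56.1 and 58.9 TPM in md WT. In ES cells Ift20 held 0.696, 0.531 and 0.391% in KO and 2.33, 2.93 and 2.36% in WT. Klhl15 and Synj2bp had opposite signs, lower in md KO and higher in ES KO.

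A test of the difference between the knockout effects gave 1 call among 2573 retained_intron rows, against 0.135% of 11118 rows of all classes. It was Sycp3, a synaptonemal complex protein of meiosis. In md cells all of its TPM sat on retained_intron transcripts in every library, at totals of 1.25 to 1.77 TPM, so its md effect was 0. In ES cells the share was 50.1, 49.9 and 45.2% in KO, against 26.4, 25.3 and 29.9% in WT, at totals of 21.8, 15.0 and 18.9 TPM in KO and 33.8, 36.8 and 27.96 TPM in WT. The effect in md minus that in ES was −21.2 points (SE 2.41, limma adjusted p = 0.0046). With the md effect fixed at 0 this restates the ES difference of 21.2 points, which was not called by itself (SE 3.05, limma adjusted p = 0.12). Its leading retained_intron transcript, ENSMUST00000125612.1 at chr10:87922409-87935981, has 8 exons and holds 1 whole intron. The call was lost on a logit scale and Sycp3 was not tested where 5 TPM were required. Other rows joined it when a library was left out, giving 4 calls without md KO 2, 10, 3, 2, 6 and 8 without ES KO 1, ES KO 3, ES WT 1, ES WT 2 and ES WT 3, and 1 in the other cases. In that order the counts above 1 were 0.155, 0.388, 0.116, 0.0777, 0.232 and 0.312% of retained_intron rows. Over all classes the calls were 0.144, 0.494, 0.215, 0.144, 0.251 and 0.584% of rows. Hdac8 had an adjusted p of 0.0088 at −5.99 points, below the 10 points a call needs. Its share was listed at 0 in every md library, so this too restates an ES difference not called by itself (limma adjusted p = 0.11). Adh5, Akt1 and Osgepl1 followed, with an adjusted p of 0.063 for the difference between effects.

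Gene totals were read beside the shares. In md cells 0 of 3591 member genes passed limma on log2(TPM + 1), against 0.0165% of 12090 genes; 223 (6.21%) had an unadjusted p under 0.05, against 6.86%. With the exon 3 clones alone 131 member genes passed (3.65%, against 3.77% of all genes), and with the exon 9 clones alone 24 (0.668%, against 1.15%). In ES cells 472 of 3803 (12.4%) passed, 274 higher and 198 lower in KO, against 12.3% of 12860 genes, 7.53% higher and 4.73% lower. That count and its balance of directions depended on which library was left out. Without WT 3 it stayed near the main count, at 370 higher and 213 lower (15.3% of members, against 14.7% of all genes). The count was 561 higher and 656 lower without KO 1, 10 and 14 without KO 2, 7 and 12 without KO 3, 5 and 6 without WT 1, and 6 and 13 without WT 2. The sums of these are 1217, 24, 19, 11 and 19. As shares of members they were 32.0, 0.631, 0.500, 0.289 and 0.500%, against 31.7, 0.482, 0.387, 0.166 and 0.387% of all genes. Among genes named above, the ES total of Eme2, Clk2 and Sf1 rose by 0.52, 0.50 and 0.41 on the log2(TPM + 1) scale and that of Morc4 and 2700007P21Rik fell by 0.71 and 1.39.

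Between the cell types retained_intron shares differed widely. Of 2655 rows tested in both wild types, 777 (29.3%) were called, 346 higher and 431 lower in md WT, against 39.3% of 11472 rows of all classes. By direction the background was 19.5% higher and 19.8% lower in md WT. The libraries did not overlap in 1608 (60.6%), against 64.4% of all rows. Rows of other classes were called at 43.3% for protein_coding, 41.7% for nonsense-mediated decay and 40.9% for processed transcripts. Cell line, culture medium and the separate tables of md and ES cells cannot be told apart.

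Some genes lay near opposite ends of the scale. The share was at least 50% in every md WT library and under 10% in every ES WT library in 10 genes, and the reverse held in 17. Shroom3, an actin-binding protein of cell shape, held 91.2, 91.5 and 91.0% in md WT, against 3.05, 1.84 and 3.37% in ES WT (88.5 points, SE 2.19, limma adjusted p = 3.1e-05), at totals of 6.37 to 10.5 TPM. Srsf3, an SR splicing factor that regulates its own splicing, held 73.8, 73.3 and 78.6% in md WT, against 6.85, 3.79 and 5.38% in ES WT. Most of it was 1 transcript, ENSMUST00000150157.1 at chr17:29177612-29179004 on the plus strand, with 322, 311 and 387 TPM in md WT and 6.76, 2.17 and 3.91 TPM in ES WT. In md KO the Srsf3 share was 77.6, 75.9, 76.3 and 75.5%, within 5 points of every md WT library. Vim, the intermediate filament protein of mesenchyme, held 71.8, 71.3 and 68.1% in md WT, against 13.3, 22.8 and 0% in ES WT.

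Among the 10 with the highest difference were also Mettl5 (an rRNA methyltransferase), Immp2l (a mitochondrial peptidase), Lap3 (leucine aminopeptidase), Gpr107 and Arsa (lysosomal arylsulfatase). The mean shares of these 5 lay between 57.0 and 88.4% in md WT and between 2.48 and 38.5% in ES WT. Immp2l was the most variable, with 67.3, 37.0 and 84.9% in md WT and 5.19, 4.10 and 0% in ES WT.

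On the lower side Wiz led, a zinc finger partner of the G9a and GLP histone methyltransferases. It held 6.24, 5.27 and 5.40% in md WT, against 87.1, 85.3 and 85.0% in ES WT (−80.2 points, SE 2.25, limma adjusted p = 3.1e-05), and its total was 27.0, 26.4 and 26.5 TPM in md WT and 221, 184 and 211 TPM in ES WT. The transcript behind it, ENSMUST00000087699.5 at chr17:32513123-32526346 on the minus strand, is 2781 nt long and had 1.37, 1.27 and 1.21 TPM in md WT, against 193, 157 and 180 TPM in ES WT. ES KO libraries lay at 86.4, 84.2 and 83.4%, beside ES WT. Vamp3, a vesicle SNARE, held 0.655, 1.59 and 0.630% in md WT, against 74.8, 72.6 and 78.3% in ES WT at similar totals of 60.6 to 65.3 TPM in md WT and 43.1 to 63.6 TPM in ES WT. Crtap, a partner of collagen prolyl 3-hydroxylase, held 0.815, 1.47 and 1.65% in md WT, against 59.97, 56.7 and 58.1% in ES WT. Commd9, Hiatl1, Dhrs1, Flii, Itm2c, Ogfr (a receptor of opioid growth factor) and Rfc4 (a subunit of the replication clamp loader) completed the 10, with means of 0.369 to 17.9% in md WT and 62.5 to 78.5% in ES WT.

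**Figure D3:**
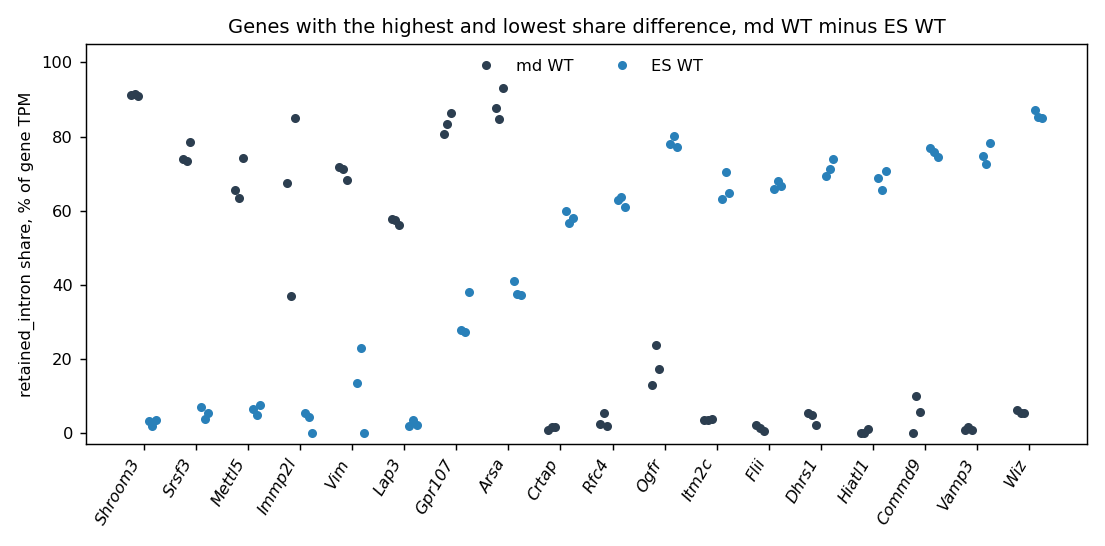
Retained_intron share of gene TPM (y axis, percent) in the 3 md WT and 3 ES WT libraries for 8 of the 10 genes with the highest and the 10 with the lowest difference among those called (x axis). Each point is a library; for Shroom3 the md WT points lie between 91.0 and 91.5% and the ES WT points between 1.84 and 3.37%, and for Wiz the order is reversed.

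The lists of splicing and RNA decay genes are short, and their calls are set beside 29.3% of all retained_intron rows and 39.3% of all rows. Of 6 hnRNP genes tested 3 were called, all lower in md WT: Syncrip with 0.522, 0.557 and 3.47% in md WT, against 42.9, 42.7 and 37.6% in ES WT, Ptbp1 with 17.9, 16.9 and 16.0% in md WT, against 56.5, 50.3 and 50.5% in ES WT, and Hnrnpm with 0.587, 0.653 and 0.730% in md WT, against 31.5, 11.1 and 19.5% in ES WT. PTBP1 is known to regulate its own splicing. Srsf3 was the 1 call among 6 SR protein genes, Zcrb1 (minor spliceosome) the 1 of 2 with 13.6, 20.2 and 14.5% in md WT, against 44.0, 39.0 and 47.4% in ES WT, and Xrn2, a nuclear exonuclease, the 1 of 4 decay genes with 10.3, 9.33 and 7.53% in md WT, against 44.3, 36.9 and 44.0% in ES WT. None of the 12 detained intron genes, 6 branch point genes or 4 reported RBM10 targets was called. The leading retained_intron transcripts of called rows had median lengths of 708 nt (higher in md WT) and 719 nt (lower), against 775 nt for rows not called, and 30.9, 25.3 and 32.7% of them held a whole intron.

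A further 64 genes held at least 50% in all 6 wild-type libraries. Named after their values were seen, the 2 of highest total were the ribosomal genes Rps20 (97.1, 97.0 and 97.5% in md WT, against 89.1, 88.4 and 86.2% in ES WT) and Rpl6 (69.1, 69.3 and 70.1% in md WT, against 89.4, 89.6 and 88.3% in ES WT). Ribosomal protein genes have near-identical processed copies, and how reads matching several places were shared is not given in the sources used here, so both shares are uncertain. Uimc1, a DNA repair protein, held 97.3 to 97.7% in md WT and 98.0 to 98.3% in ES WT, and Taf10, a subunit of TFIID and SAGA, 96.6 to 96.9% in md WT and 98.6 to 98.9% in ES WT. Psmb4, a proteasome subunit, held 89.7 to 91.0% in md WT and 74.5 to 79.0% in ES WT. The leading retained_intron transcripts of the 15 with the highest totals were 284 to 836 nt long. TPM is per length, so a short transcript that overlaps the exons of a coding one gains more TPM from each read given to it.

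Crosslinks over whole gene bodies were compared next. Of the 3591 md genes 3271 had enough same-strand crosslinks over the gene body for edgeR's quasi-likelihood test. RBM10 libraries were higher in 913 (27.9%), against 20.4% of 9284 genes of all kinds, and lower in 329 (10.1%), against 17%. Among expressed protein-coding genes without a retained_intron transcript the figures were 17.9 and 17.3%. The member genes were also more highly expressed, at a median of 25.4 TPM in md WT, against 15.6 TPM for those without, and the part of this in the counts was not tested. Scaling mattered: without TMM factors the log2 fold change of the median gene went to 0.32, against 0.05 with them. The calls among members were then 1313 higher and 157 lower, and the higher ones made up 89.3% of them, against 73.5% with TMM. The background moved the same way: over all genes tested 2768 of 3689 calls were higher without TMM, against 1893 of 3472 with it. The shift is thus not particular to the member genes. Without IgG 2, the deepest control, 670 members were called in all, against 1242.

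The lowest p on the higher side belonged to Fanca, of the Fanconi anaemia pathway of DNA repair. It had 671, 1508, 2303 and 492 crosslinks in RBM10 libraries, against 147, 315, 12 and 14 in IgG libraries (log2 fold change 2.02, SE 0.19, adjusted p = 8.6e-05). D4Wsu53e, Tacc3 (a spindle protein), Med12 (Mediator kinase module) and Ddx5 (an RNA helicase) followed with log2 fold changes of 2.55, 2.37, 2.31 and 1.81. On the lower side were Palm2, Lphn3 and Rbms3 at −1.14, −1.31 and −1.28. Srsf3 had 312, 728, 1158 and 242 crosslinks in RBM10 libraries, against 91, 155, 4 and 6 in IgG libraries (log2 fold change 1.90, SE 0.24, adjusted p = 0.00031), and Osgep had 25, 75, 110 and 18 in RBM10 libraries, against 6, 12, 0 and 0 in IgG libraries. Among retained_intron rows whose gene body was tested, it was higher in RBM10 libraries in 52 of 148 rows with an unadjusted p under 0.05 in md cells (35.1%), against 747 of 2291 other rows (32.6%). With the rows of ES cells, where no iCLIP was done, it was 76 of 195 (39.0%), against 663 of 2049 (32.4%).

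Retained introns proper were then looked at, that is introns of protein_coding transcripts that lie whole inside an exon of a retained_intron transcript. There were 3892 in 1742 member genes of md cells. In 3455 some bases lay outside the exons of every same-strand transcript of another type, and crosslinks were counted on those bases. RBM10 crosslinks were seen in 3232 of these and IgG crosslinks in 2194, and 197 had none in any library. They were short and GC-rich, with a median of 247 nt and 51.4% GC, and 97.5% ran from GT to AG. The other introns, here and below except in the edgeR test of introns, were those of all md member genes, so the genes were not matched. They lay in 3586 genes, against 1635 for the retained introns counted. Their medians were 1368 nt and 45.2% GC, and 98.2% ran from GT to AG.

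Mean density per base was higher in retained than in other introns with both antibodies. In introns of 200 to 500 nt RBM10 libraries had 24.3 ± 6.89 crosslinks per kb per 1000000 crosslinks of the library (CPM per kb) in 894 retained introns and 14.3 ± 4.15 in 6444 others, and IgG libraries had 3.14 ± 0.599 and 1.89 ± 0.304 (SD, n = 4 each). The ratio of retained to other was 1.70 ± 0.032 in RBM10 libraries and 1.66 ± 0.163 in IgG libraries. For 50 to 100 nt it was 1.43 ± 0.021 in RBM10 and 1.72 ± 0.593 in IgG libraries, for 100 to 200 nt 1.75 ± 0.059 in RBM10 and 2.21 ± 0.755 in IgG libraries, and for 500 to 1000 nt 1.89 ± 0.067 in RBM10 and 1.75 ± 0.110 in IgG libraries. In these 4 classes the libraries of the antibodies overlapped. In introns of 1000 to 5000 nt, 1 class of 5, they did not, and the retained introns of that class were shorter, at a median of 1507.5 nt, against 2060 nt in the others. No test of this is given. The ratio was 2.49 ± 0.086 in RBM10 libraries (2.42 to 2.61) and 1.74 ± 0.107 in IgG libraries (1.64 to 1.84), from 7.26 ± 1.62 CPM per kb in 498 retained introns and 2.90 ± 0.597 in 20339 others in RBM10 libraries. The intron with the most RBM10 crosslinks gave at most 4.53% of those of its class among retained introns.

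**Figure D4:**
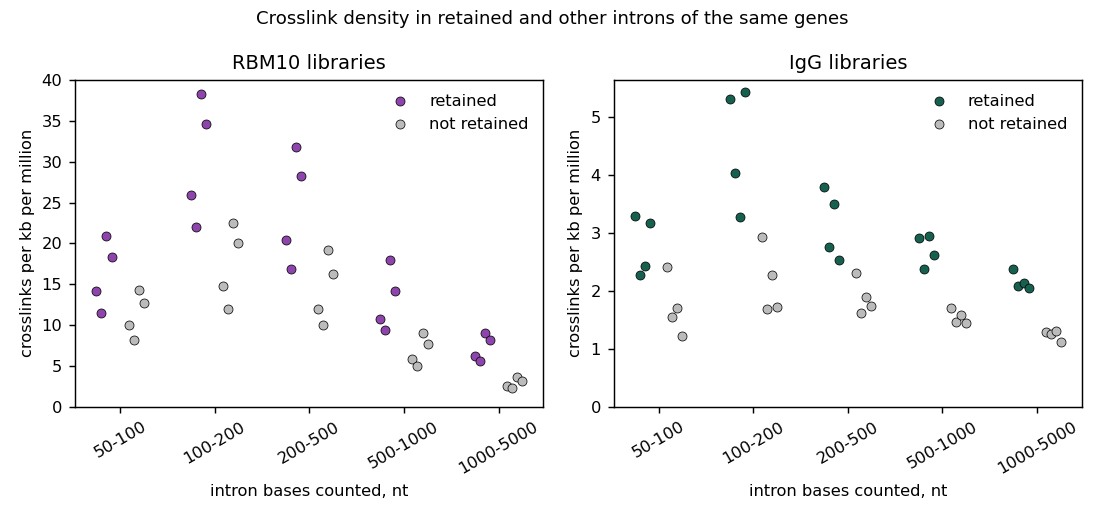
Crosslinks per kb per 1000000 crosslinks of the library (y axes, on separate scales) in retained and other introns of md member genes, by number of intron bases counted (x axes), in RBM10 libraries (left) and IgG libraries (right). Each point is a library; retained introns lie above the others on average in all 5 length classes with both antibodies.

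The position of crosslinks within introns separated the antibodies. In introns over 200 nt the last 100 nt held 33.7% ± 1.55 of RBM10 crosslinks in retained introns and 21.0% ± 4.57 in others, against 16.3% ± 2.35 and 2.89% ± 0.591 of IgG crosslinks (SD, n = 4 each). Retained introns are shorter, so 100 nt is a larger part of them. In density, RBM10 libraries had 67.7 ± 22.1 CPM per kb from 51 to 80 nt before the 3′ end of 1875 retained introns, against 4.69 ± 1.84 in IgG libraries. For 38508 other introns the values were 33.6 ± 11.4 in RBM10 libraries and 1.70 ± 0.688 in IgG libraries. Over the last 40 nt, which usually hold the branch point and polypyrimidine tract, they were 7.56 ± 1.09 in RBM10 libraries and 3.42 ± 0.343 in IgG libraries in retained introns. Of the 10 introns with the lowest p on the higher side, the most crosslinked base within the last 150 nt, or in Aars the whole intron, lay 72 to 77 nt from the end in Aars, Actb, Tial1 and Hsp90b1. It lay 87 nt from the end in Psmb8 and 110 to 141 nt in Med12, Mtmr2, Rbm3, Blmh and Ddx23.

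**Figure D5:**
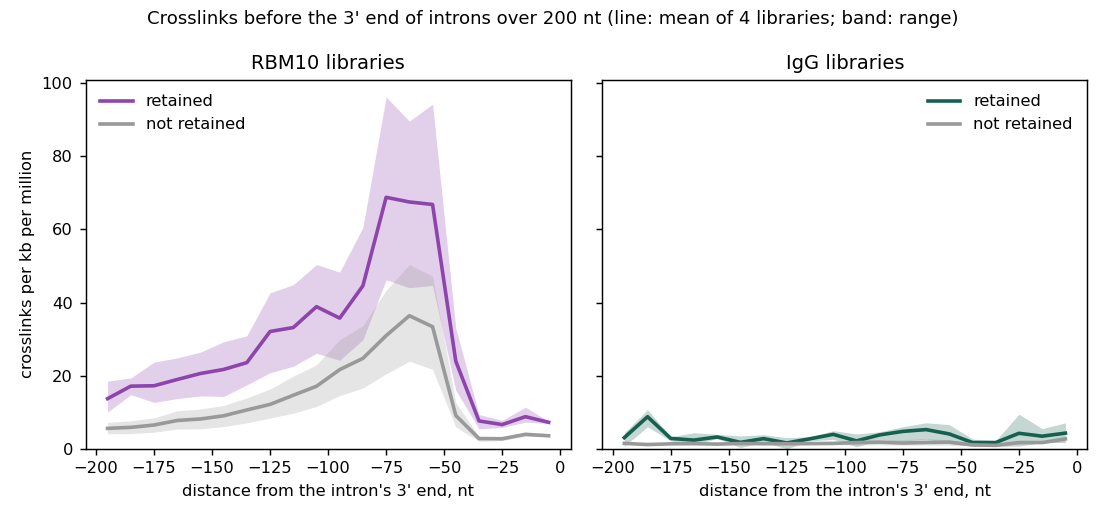
Crosslinks per kb per 1000000 crosslinks of the library (y axis) at each distance before the 3′ end of introns over 200 nt (x axis, nt, in steps of 10), for retained and other introns of md member genes, in RBM10 libraries (left) and IgG libraries (right). Lines are means of 4 libraries and bands their range; RBM10 libraries peak between 50 and 80 nt before the end in both kinds of intron, and IgG libraries stay below 11.

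The crosslinked base differed too. In retained introns C made up 47.5% ± 1.64 of RBM10 crosslinks, against 17.9% ± 2.82 of IgG crosslinks, and U made up 32.6% ± 1.66 of RBM10 crosslinks, against 50.3% ± 1.56 of IgG crosslinks (SD, n = 4 each). In other introns C made up 41.3% ± 5.65 of RBM10 crosslinks and 14.1% ± 1.10 of IgG crosslinks.

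Of the 3455 retained introns 368 passed the filter on low counts and were tested with edgeR among 18423 introns. The 18423 came from all protein-coding genes that passed in md cells, not from member genes alone. The 368 covered 339 distinct stretches, since alternative splice sites give nested introns. RBM10 libraries were higher in 317, against 32.3% of all introns tested, and lower in 2, against 18.6%. An intron that passed only through its RBM10 libraries had to differ, so the count describes the introns that passed and not retained introns as a class. DESeq2's scaling put the median of all introns at 0.85, against 0.19 with TMM, and the higher share of all calls at 92.6%, against 63.5%; among the tested retained introns it called 327 higher and 0 lower.

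The intron with the lowest p was the one of Aars shown above, with 109, 181, 290 and 135 crosslinks in RBM10 libraries, against 6, 1, 1 and 0 in IgG libraries (log2 fold change 5.02, SE 0.59, adjusted p = 3.2e-14). All 4 RBM10 libraries lay above every IgG library. With so few crosslinks in IgG libraries, the limit of the filter given above holds for this intron, and it was chosen by lowest p. Its p and the lack of overlap are therefore no separate evidence, and the same goes for the other introns named by lowest p. The libraries of the antibodies did not overlap in 273 of the 368 tested retained introns, against 7376 of all 18423 tested. The retained_intron share of Aars was 37.4, 29.0, 20.9 and 43.8% in md KO, against 36.7, 35.2 and 31.9% in md WT (adjusted p = 0.96). Here and below, a share sums all retained_intron transcripts of the gene, and these need not hold the named intron. The Tial1 intron had 96, 185, 297 and 92 crosslinks in RBM10 libraries, against 3, 7, 0 and 0 in IgG libraries, that of Blmh 74, 153, 311 and 64 in RBM10 libraries, against 2, 11, 0 and 0 in IgG libraries, and that of Psmb8 60, 177, 325 and 85 in RBM10 libraries, against 5, 10, 0 and 0 in IgG libraries. The Tial1 share was 15.3, 17.4, 7.6 and 8.5% in md KO, against 8.1, 8.2 and 6.9% in md WT (adjusted p = 0.83), with the exon 3 clones above the exon 9 clones. Blmh and Psmb8 held at most 1.1% in every md library and were not tested.

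Introns of Actb (cytoskeletal actin), Mtmr2 (a phosphoinositide phosphatase), Rbm3 (a cold-inducible RNA-binding protein), Ddx23 (a U5 snRNP helicase), Hsp90b1 (an endoplasmic reticulum chaperone) and Med12 completed the 10, with log2 fold changes of 3.73 to 5.89. The Actb intron at chr5:143666462-143666915 had 358, 686, 1041 and 256 crosslinks in RBM10 libraries, against 42, 16, 0 and 2 in IgG libraries, while the share of Actb was 0.2 to 0.3% in every md library. The Med12 intron had 84, 149, 255 and 77 in RBM10 libraries, against 7, 1, 0 and 0 in IgG libraries, and its gene held 24.4, 16.0, 4.9 and 15.3% in md KO and 13.2, 19.8 and 16.0% in md WT (adjusted p = 0.97). No gene of the 10 had a share called in md cells, and 5 of them, with mean shares under 1%, were not tested. Mean shares of the 10 in md WT ran from 0.0659% in Blmh to 34.6% in Aars.

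The Srsf3 intron at chr17:29175570-29177719, 2150 nt long, had 247, 535, 888 and 166 crosslinks in RBM10 libraries, against 29, 36, 2 and 2 in IgG libraries (log2 fold change 3.24, SE 0.45, adjusted p = 9.2e-11). It lies whole inside an exon of ENSMUST00000147265.1. The transcript named above for most of the Srsf3 share is another one, which begins within this intron and does not hold it whole. Nested introns that share their counted bases were taken once for the lists. Of the tested stretches, 6 of 9 of detained intron genes, 3 of 3 of SR proteins, 2 of 2 of branch point genes, 1 of 1 of hnRNPs and 0 of 1 of reported RBM10 targets were higher in RBM10 libraries and 0 were lower, against 86.1% higher among all tested retained introns, with the limit of the filter given above. Among them were introns of Clk2 (40, 56, 116 and 26 crosslinks in RBM10 libraries, against 2, 5, 1 and 0 in IgG libraries), Ccnl2, Srsf2 and Sf3a1. Introns of Clk1 and Clk4 did not pass (adjusted p = 0.11 and 0.36).

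The 2 introns lower in RBM10 libraries were in Snrpb, an Sm protein gene, and Hspa8, a cytosolic chaperone. Snrpb had 13.3 ± 9.57 CPM in RBM10 libraries and 30.2 ± 13 in IgG libraries (log2 fold change −1.56, SE 0.42, adjusted p = 0.0010), and Hspa8 had 63.1 ± 30.5 CPM in RBM10 libraries and 103 ± 39.1 in IgG libraries (log2 fold change −0.89, SE 0.39, adjusted p = 0.043; SD, n = 4 each). In both genes the libraries overlapped. The Snrpb call was lost with DESeq2, and the Hspa8 call was lost with DESeq2, with a filter of 10 crosslinks and without RBM10 3, RBM10 4, IgG 1 or IgG 2, and its direction turned when each position was counted once. Hspa8 had a share of 32.7, 31.7, 46.1 and 45.2% in md KO and 32.9, 34.2 and 35.4% in md WT (adjusted p = 0.88), with the exon 9 clones above the others.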

How the data were processed

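The authors deposited TPM per Ensembl transcript for 7 md and 6 ES RNA-seq libraries in 1 table per cell type, and counts of crosslinks per position and strand for 8 iCLIP libraries. Per the labels, iCLIP reads were mapped to mm9 and RNA-seq libraries were enriched for polyadenylated transcripts. mm9 and mm10 are named in the submitters' processing notes. The quantifier, its annotation, library strand and the treatment of molecular barcodes were not given in the sources used here, so reads of overlapping antisense genes cannot be told apart. TPM carries no depth, so the precision of a share is known only from the spread between samples.

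Transcripts were joined by Ensembl identifier to GENCODE vM1 on mm9 (84877 of 100249, 84.7%). They held 90.3 to 91.5% of TPM in md and 85.4 to 87.5% in ES libraries. Shares were computed as percent of gene TPM from the deposited TPM and tested with limma 3.58.1 (empirical Bayes with trend), gene totals with limma on log2(TPM + 1) for genes of at least 1 TPM in 3 libraries. Crosslink counts were tested with edgeR 4.0.16 (quasi-likelihood, TMM, default filter on low counts, library size the total of crosslinks), and DESeq2 1.42.0 was an alternative, in R 4.3.3. Crosslink counts may include copies of a molecule. The steps were tested on simulated data.

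Genes were named as follows: called rows with groups that do not overlap and a mean of at least 5 TPM per group, the 10 highest and 10 lowest by difference; the 5 rows of lowest p where fewer than 5 were called; the 10 retained introns higher and 5 lower by p; 5 and 3 gene bodies; and up to 4 members of each list. Some genes that this rule names are not reported here. The members, lists and tests were chosen with earlier results of these data known. Replicate numbers of RNA-seq libraries mark no shared source. Those of iCLIP pair each RBM10 library with its own control, per the design text, although deviations of same-numbered libraries were not correlated (−0.15 to 0.06 over all 3 comparisons). Columns of no sample numbered 0. Alternatives were other scalings, filters and pseudocounts, a logit scale, each library left out and the clones by deleted exon. The clones by exon and the density by intron length were chosen after seeing the data.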

Additional observations from a re-analysis of the deposited data

Results flagged for a closer look

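Of 85 groups of 4 libraries looked at, 5 held a library apart from the other 3 by Dixon's test at the 95% level, and chance flags about 1 in 20 groups. The summed retained_intron share of md KO 4 was 12.2%, against 12.6% in each of the other 3 md KO clones. The retained intron of Ddx23 had 2.07 CPM (crosslinks per 1000000 of the library) in IgG 1 and 0 in the other IgG libraries, and that of Med12 had 7.25 in IgG 1 and 0 to 0.452 in the others. The intron of Tor1b, 1 of the 5 named on the lower side and not past the test, had 19.0 CPM in IgG 4 and 9.33 to 9.71 in the others. The density ratio of retained to other introns of 50 to 100 nt was 2.60 in IgG 4 and 1.37 to 1.47 in the others. IgG 4 holds 157986 crosslinks and IgG 1 965090.

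The knockout effect on Sycp3 differed between the cell types, by −21.2 points (md minus ES), where the md share was at its ceiling of 100% in every library. It restates the ES difference, which was not called by itself (limma adjusted p = 0.12).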

How the results depend on the processing

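With 3 or 4 samples a group, 1 library moved several counts. Leaving out 1 library at a time gave 0 to 1 calls of retained_intron shares in md, 0 to 2 in ES, 1 to 10 for the difference between knockout effects and 727 to 752 between cell types. In percent of the retained_intron rows tested these were 0 to 0.0374, 0 to 0.0730, 0.0386 to 0.388 and 27.3 to 28.4. Over all classes the calls were 0 to 0.0344, 0.0168 to 0.109, 0.0901 to 0.584 and 36.6 to 37.9% of rows. The same step gave 11 to 1217 ES gene totals (main 472), 670 to 1353 gene bodies (main 1242, lowest without IgG 2) and 267 to 459 retained introns (main 319). In percent of the members tested these were 0.289 to 32.0, 20.4 to 41.4 and 67.9 to 87.6. Over all genes or introns tested the calls were 0.166 to 31.7, 19.3 to 43.2 and 31.0 to 55.5%. A logit scale gave 2 calls in ES (0.0735%, against 0.0674% of all rows) and 0 for the difference. The difference also gave 0 at 5 TPM or more and 2 with no minimum difference (0.0777%, against 0.162%). It gave 2 with exon 3 clones alone (0.0769%, against 0.107%) and 5 with exon 9 clones alone (0.194%, against 0.251%). Without a minimum difference 1217 rows were called between cell types (45.8%, against 52.2%). ES gene totals passed in 203 member genes without a filter on low values (5.34%, against 3.50% of all genes). With the replicate block 123 passed (53 higher, 70 lower), or 3.23%, against 3.28%. md gene totals passed in 131 with exon 3 clones alone (3.65%, against 3.77%) and 24 with exon 9 clones alone (0.668%, against 1.15%). A filter of 10 crosslinks gave 978 of 2342 tested retained introns (41.8%; 971 higher, 7 lower), against 319 of 368 (86.7%), and 23.4% of all introns, against 50.9%. The replicate block gave 0 share calls in both knockouts and 0 md gene totals. It gave 937 gene bodies (28.6%, against 28.9% of all genes) and 292 introns (79.3%, against 41.7% of all introns). Apart from the ES gene totals given above, it changed no count by over 1.5 times.

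Of 1041 recomputed values of named genes and introns 1005 kept direction and side of the threshold, 8 fell below it, 21 rose above it and 7 turned direction. These were the introns of Hspa8 with each position counted once (0.68 on the log2 scale), Nop56 with DESeq2 (0.18), Numbl with DESeq2 (0.35) and without IgG 1 (0.19; −0.81 without IgG 2), and Tor1b with DESeq2 (0.36), without TMM (0.041) and with each position counted once (0.10). The cause was not tested. RNA-seq depth is unknown, and IgG 3 and IgG 4 hold the fewest crosslinks, 103017 and 157986.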
